A study of Mus musculus with 8 samples.

Results

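The Dlk1-Dio3 cluster is a run of imprinted genes on mouse chromosome 12, and its 6 members described here are Dlk1, Rtl1 and Dio3, which code for proteins, and Meg3, Rian and Mirg, which give long noncoding RNAs. They were taken by name, as rows of the deposited count table whose Ensembl identifier, version dropped, carries the member's symbol in GENCODE M21. No measured value enters this rule, but the members were chosen with earlier results of these data known. All 6 were found among 55401 rows. RNA was sequenced from E17.5 mouse prospermatogonia, which are fetal male germ cells in arrest before birth, in 4 libraries labelled KO (genotype Tet1-/-) and 4 labelled WT (genotype Tet1+/+), all given as batch 1. Libraries were made from 5 ng of total RNA depleted of ribosomal RNA, with a kit that carries unique molecular identifiers. The kind of Tet1 allele, the strain and the way the cells were isolated are not stated by the sources used here, and nothing in them says whether the 4 libraries of a group came from separate animals. The library names in the labels carry a different number for each library of a group, KO 1 and WT 1 share one such number, and what it stands for is not stated. The p-values below therefore measure the spread between these libraries, which may be partly technical.

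Imprinted genes are expressed from the copy inherited from a single parent. In this cluster, outside germ cells, Dlk1, Rtl1 and Dio3 are known to be expressed mainly from the paternal copy. Meg3, Rian and Mirg are expressed there mainly from the maternal copy. The choice is set by DNA methylation of the intergenic control region between Dlk1 and Meg3, which is methylated on the paternal chromosome and acquires that methylation in male germ cells before birth. TET1 oxidises methylated cytosine, and the comparison asks which transcripts differ between prospermatogonia labelled Tet1-/- and those labelled Tet1+/+. Counts in this table are not split by parental copy, so they give the summed output of both chromosomes. They do not show whether the parental split holds in these germ cells.

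The Tet1 count itself went against the labels. Tet1 had 129, 145, 75.8 and 147 CPM in KO 1 to KO 4, against 30.3, 30.2, 32.8 and 34.2 CPM in WT 1 to WT 4 (CPM, counts scaled to a common library size after edgeR's TMM correction of the totals). Every library labelled KO was above every library labelled WT, with a log2 difference of 1.97 (KO minus WT). The table does not separate exons, so it cannot show whether part of the gene is missing, and the reason for the higher count was not tested. Whether the labels were exchanged was not tested either, and every direction below would then reverse. The groups are named by their labels throughout, and each direction below is that of the labels. Library totals ran from 13820764 to 20115250 counts. The germ cell identity of the samples was checked on 10 markers (such as Ddx4 and Dazl), all of which were counted in every library. They summed to between 2080 and 2530 CPM in the libraries labelled KO and to between 2250 and 2590 CPM in those labelled WT. Of these markers 5 were higher in the libraries labelled KO, 2 were lower and 3 did not pass. Over all genes tested, 25.3% were higher and 28.2% lower. KO 4 stood apart from the other libraries in its content of Leydig cell genes, as described beside Meg3.

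From the start of Dlk1 to the end of Dio3 the cluster spans 828.3 kb. In GRCm38, the assembly also called mm10, Dlk1 (ENSMUSG00000040856.17) lies on chromosome 12 from 109452823 to 109463336, plus strand. Meg3 (ENSMUSG00000021268.17) lies from 109541001 to 109571726, plus strand. Rtl1 (ENSMUSG00000085925.3) lies from 109589193 to 109600330 on the minus strand, alone among the members in that orientation. Rian (ENSMUSG00000097451.11) lies from 109603940 to 109661716 and Mirg (ENSMUSG00000097391.8) from 109729764 to 109749460, both on the plus strand. Dio3 (ENSMUSG00000075707.5) lies from 110279068 to 110281097, plus strand, 530 kb beyond the end of Mirg, whereas the gaps between the other neighbours run from 3.61 to 77.7 kb.

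Meg3, Rian and Mirg are spliced noncoding RNAs whose introns and exons carry many small RNAs: Rian is the host of C/D box small nucleolar RNAs, and Mirg of microRNAs. A further group of microRNAs is transcribed antisense to Rtl1, across its protein-coding exon, and is known in mouse to cut the Rtl1 messenger RNA. The sequences of 3 of them are shown because they make the strand overlap concrete: each is complementary over its whole length to coding sequence of Rtl1. MicroRNAs are written 5′ to 3′ with the seed (bases 2 to 8) in capitals, each followed by its site on the Rtl1 strand. They come from RefSeq (GRCm38.p6), and the sites were found in the GENCODE M21 transcript.
miR-127-3p: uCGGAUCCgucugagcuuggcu
Rtl1 site of miR-127-3p: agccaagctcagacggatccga
miR-433-3p: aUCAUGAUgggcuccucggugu
Rtl1 site of miR-433-3p: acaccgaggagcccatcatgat
miR-136-5p: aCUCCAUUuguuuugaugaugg
Rtl1 site of miR-136-5p: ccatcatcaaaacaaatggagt
In all, 11 mature microRNAs of 6 genes (Mir431, Mir433, Mir127, Mir434, Mir432 and Mir136) were annotated on the plus strand within Rtl1, and all 11 had such a site in the Rtl1 coding sequence.

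The promoters of Meg3, Dlk1 and Dio3 are shown because the first pair fell together in the data below and Dio3 did not pass the test. Each is 300 bases, from 250 before to 50 after the RefSeq start, on the plus strand of GRCm38.p6. They lie at chr12:109540746-109541045 for Meg3, chr12:109452573-109452872 for Dlk1 and chr12:110278980-110279279 for Dio3. Capitals mark matches on either strand to CCAAT (the CCAAT box), TATAAA (the TATA box), TGACGTCA (the cAMP response element) and GGGCGG (the GC box).
Meg3: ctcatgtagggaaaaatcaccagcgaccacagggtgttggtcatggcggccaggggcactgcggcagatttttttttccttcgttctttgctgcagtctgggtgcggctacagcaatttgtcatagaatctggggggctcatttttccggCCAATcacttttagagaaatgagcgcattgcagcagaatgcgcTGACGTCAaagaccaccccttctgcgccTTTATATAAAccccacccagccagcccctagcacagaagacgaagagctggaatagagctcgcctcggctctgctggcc
Dlk1: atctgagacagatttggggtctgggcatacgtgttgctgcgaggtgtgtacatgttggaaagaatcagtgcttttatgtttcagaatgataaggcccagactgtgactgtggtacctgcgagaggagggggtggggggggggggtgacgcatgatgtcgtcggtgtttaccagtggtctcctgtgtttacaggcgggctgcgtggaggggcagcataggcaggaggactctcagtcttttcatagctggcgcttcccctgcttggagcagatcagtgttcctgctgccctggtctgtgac
Dio3: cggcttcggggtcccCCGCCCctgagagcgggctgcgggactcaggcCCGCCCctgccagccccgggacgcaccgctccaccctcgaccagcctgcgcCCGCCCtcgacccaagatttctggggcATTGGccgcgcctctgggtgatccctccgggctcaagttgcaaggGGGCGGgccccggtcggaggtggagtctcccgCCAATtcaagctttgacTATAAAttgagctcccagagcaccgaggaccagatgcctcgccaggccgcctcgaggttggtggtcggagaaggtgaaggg
The Meg3 window held 1 match to CCAAT, 1 to TGACGTCA and 2 to TATAAA, which overlap on opposite strands in the run TTTATATAAA. The Dio3 window held CCAAT at 2 places, TATAAA at 1 and GGGCGG at 4, and the Dlk1 window held none of these motifs. Among 32851 RefSeq mouse promoter windows of the same length, 37.4% held CCAAT, 13.6% TATAAA, 35.7% GGGCGG and 1.79% TGACGTCA. CpG dinucleotides numbered 13 in the Meg3 window, 9 in that of Dlk1 and 25 in that of Dio3, against a median of 7 over all windows. These are matches of letters, not measured binding sites.

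All 3 noncoding members fell in the libraries labelled KO, and so did Dlk1 and Rtl1 among the coding members, by between 1.26 and 2.07 on the log2 scale. The Rtl1 row does not separate the strands, as described with the strand overlap below. Dio3 did not pass. Of all 24005 genes tested, 53.5% passed, 28.2% being lower and 25.3% higher in the libraries labelled KO (edgeR's quasi-likelihood test, Benjamini-Hochberg adjusted p under 0.05), so a fall of a single gene was common in this comparison, and 5 lower, 0 higher and 1 not passed of 6 members is read against that background. These calls were 6770 lower and 6083 higher genes. Upper-quartile scaling made them 8882 lower and 4033 higher, and scaling on ribosomal protein genes 7463 lower and 4299 higher, while Dlk1, Rtl1, Meg3, Rian and Mirg were called lower under each. The groups did not overlap in any of the 6 members, all of them with the libraries labelled KO below. Over all tested genes the groups were apart in 48.4%, and in 25.1% with the libraries labelled KO below. A fall of 1 or more on the log2 scale passed in 19.4% of all tested genes. By class, 29.9% of the 4795 long noncoding genes (TEC genes among them) and 29.8% of the 16568 protein-coding genes were lower. The median log2 difference was -1.48 over the members and -0.05 over all tested genes. Among the 6358 tested genes whose mean level lay within the range of the members other than Dio3, 17.1% were lower and 47.4% higher.

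Meg3, a long noncoding RNA and the first maternally expressed transcript after the control region, had 40.7, 39.9, 40.3 and 79.6 CPM in KO 1 to KO 4, against 136, 147, 126 and 106 CPM in WT 1 to WT 4. KO 4 stood well above the other libraries labelled KO but below all of those labelled WT. The means were 50.1 ± 19.6 CPM in the libraries labelled KO and 129 ± 17.6 CPM in those labelled WT (SD, n = 4 each), and the log2 difference was -1.36 (SE 0.207, edgeR, adjusted p = 1.40e-04). Leaving out KO 4 gave a log2 difference of -1.65 (adjusted p = 3.56e-06, over a range of 1.83e-09 to 8.35e-04 in all 16 alternatives).

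KO 4 was also the library with high levels of Leydig cell genes, which mark the androgen-producing cells of the testis interstitium. The 7 markers of that list summed to 23.5, 16.1, 16.5 and 1810 CPM in KO 1 to KO 4, against 18.5, 35.8, 17.8 and 20.3 CPM in WT 1 to WT 4. Of the 6 markers tested 5 were higher in the libraries labelled KO, with 0 passing in either direction without KO 4 and 3 higher without WT 1. Cyp17a1, an enzyme of androgen synthesis, reached 862 CPM in KO 4, and between 1.55 and 4.70 CPM in the other 3 libraries labelled KO. Insl3, the defining peptide hormone of these cells, was counted at 24.9 CPM in KO 4 and at 0 in KO 1, KO 2 and WT 4. The part of Leydig cell RNA in the Meg3 level of KO 4 was not tested, and the fall of Meg3 was larger without that library. Sertoli markers summed to between 45.7 and 110 CPM in the libraries labelled KO, with KO 4 the highest, and to between 55.5 and 78.7 CPM in those labelled WT.

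**Figure D1:**
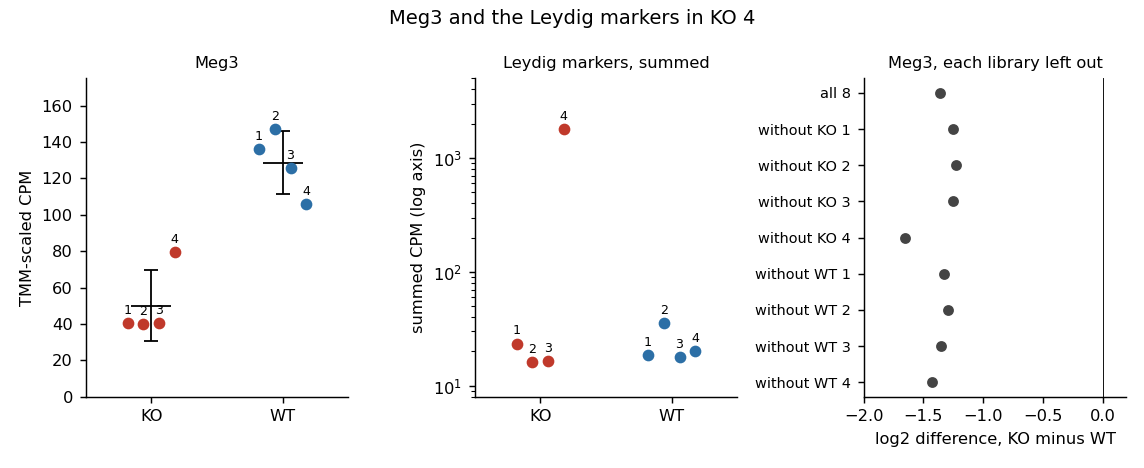
Left, TMM-scaled CPM of Meg3 by library number, with the mean and SD of each group. Middle, summed CPM of 7 Leydig markers by library on a log axis, with no mean. Right, the log2 difference of Meg3 (KO minus WT) over all 8 libraries and with each library left out. KO 4 is the highest of the libraries labelled KO for Meg3, at 79.6 CPM, and for the Leydig markers, at 1810 CPM, and the Meg3 difference is -1.65 without it.

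Rian, the noncoding RNA that hosts C/D box small nucleolar RNAs, had 78.8, 69.1, 106 and 121 CPM in KO 1 to KO 4, against 276, 330, 276 and 253 CPM in WT 1 to WT 4. It took the most counts of any member in every library, and its highest library labelled KO lay far below its lowest library labelled WT. The means were 93.7 ± 24.0 CPM in the libraries labelled KO and 284 ± 32.6 CPM in those labelled WT (SD, n = 4 each). The log2 difference was -1.60 (SE 0.163, edgeR, adjusted p = 7.22e-06), so the libraries labelled KO held 33.0% of the level of those labelled WT.

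Mirg, the microRNA host at the distal end of the noncoding run, showed the lowest relative level. It had 13.8, 10.3, 16.5 and 13.1 CPM in KO 1 to KO 4, against 48.7, 59.2, 55.4 and 61.8 CPM in WT 1 to WT 4. Both groups were tight and lay far apart. The libraries labelled KO held 23.8% of the level of those labelled WT, with a log2 difference of -2.07 (SE 0.148, edgeR, adjusted p = 5.40e-07). KO 4, the high library for Meg3, was not high for Mirg.

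Dlk1 encodes a transmembrane protein with EGF-like repeats, related to the Notch ligands and known for holding precursor cells, such as those of fat, undifferentiated. It had 28.1, 31.8, 37.5 and 27.8 CPM in KO 1 to KO 4, against 66.8, 109, 67.6 and 56.4 CPM in WT 1 to WT 4. The libraries labelled KO lay close together, and WT 2 stood above the other libraries labelled WT. The means were 31.3 ± 4.51 CPM in the libraries labelled KO and 74.9 ± 23.2 CPM in those labelled WT (SD, n = 4 each), with a log2 difference of -1.26 (SE 0.185, edgeR, adjusted p = 1.06e-04). WT 2 also had the highest sum of Leydig markers among the libraries labelled WT, 35.8 CPM, and the log2 difference of Dlk1 without WT 2 was -1.02. KO 4, with 1810 CPM of these markers, had the lowest Dlk1 level of all 8 libraries. In bulk RNA, fewer cells of a type and less RNA per cell cannot be told apart, and Dlk1 is also expressed in cells of the testis interstitium.

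Rtl1 descends from a sushi-ichi retrotransposon and is known in mouse for its need in the fetal capillaries of the placenta. It had 8.48, 6.92, 9.89 and 10.6 CPM in KO 1 to KO 4, against 29.6, 35.6, 34.0 and 31.8 CPM in WT 1 to WT 4. No library labelled KO came near the lowest library labelled WT. The means were 8.97 ± 1.63 CPM in the libraries labelled KO and 32.8 ± 2.62 CPM in those labelled WT (SD, n = 4 each), with a log2 difference of -1.87 (SE 0.152, edgeR, adjusted p = 1.42e-06). Among the coding members Rtl1 had the lowest relative level, 27.4% of that in the libraries labelled WT, in a row that does not separate the strands.

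Dio3, the type 3 deiodinase that inactivates thyroid hormone, had the fewest counts and the lowest level per kilobase of exon. Its level was 2.39, 2.55, 3.10 and 2.96 CPM in KO 1 to KO 4, against 3.28, 4.07, 3.50 and 3.30 CPM in WT 1 to WT 4. The groups lay next to each other without overlap. The log2 difference was -0.36 with a 95% interval of -0.84 to 0.11 (SE 0.222, edgeR, adjusted p = 0.183), from 169 counts over the libraries labelled KO and 257 over those labelled WT. A difference of the size seen in the other members, the smallest of which was -1.26, lay outside that interval.

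**Figure D2:**
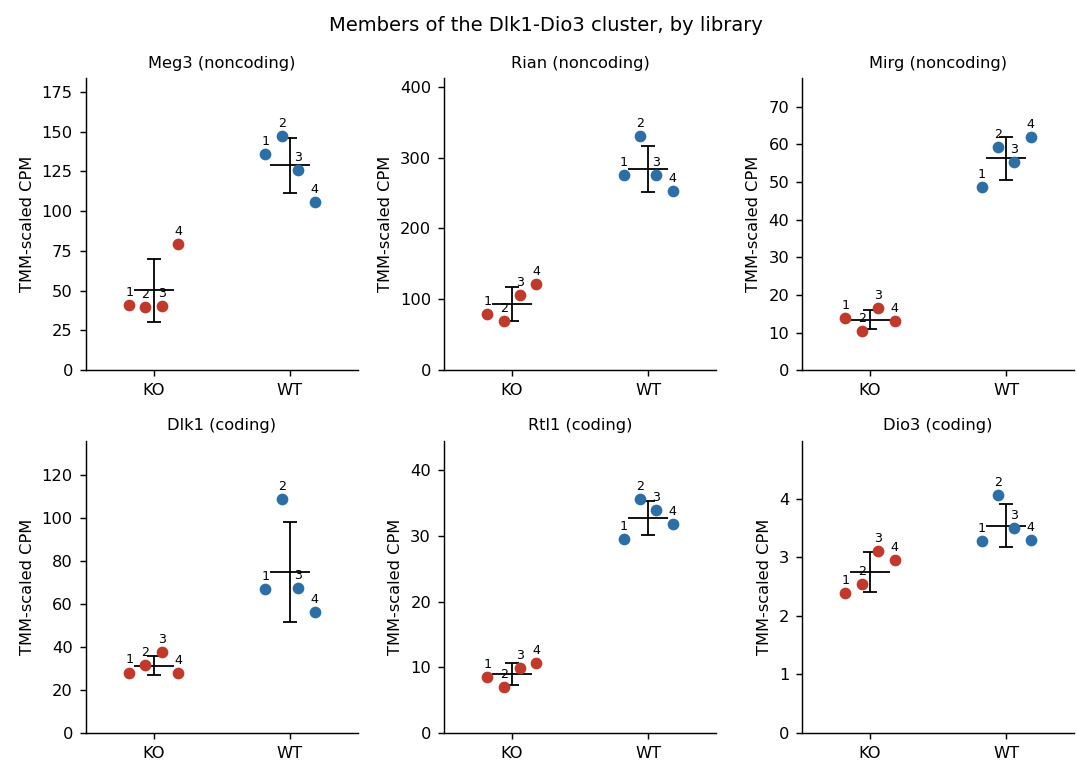
TMM-scaled CPM of the 6 members in each library, with KO left of WT and the library number beside each point. Horizontal bars are group means and error bars the SD (n = 4). The groups do not overlap in any member, and for Dio3 they nearly touch, at 3.10 CPM in KO 3 and 3.28 CPM in WT 1.

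Per kilobase of exon, which allows levels of different genes to be set side by side, the order of the members in the libraries labelled KO was Dlk1 with 5.53 ± 0.797, Rian with 5.14 ± 1.31, Meg3 with 2.77 ± 1.08, Mirg with 1.84 ± 0.349, Rtl1 with 1.41 ± 0.256 and Dio3 with 1.35 ± 0.165 CPM per kb (SD, n = 4). In the libraries labelled WT the order was Rian with 15.6 ± 1.79, Dlk1 with 13.2 ± 4.09, Mirg with 7.72 ± 0.780, Meg3 with 7.11 ± 0.975, Rtl1 with 5.15 ± 0.413 and Dio3 with 1.74 ± 0.181 CPM per kb. The ranges of mean ± SD of all neighbours in this order overlapped in the libraries labelled KO. In those labelled WT they overlapped between Rian and Dlk1 and between Mirg and Meg3, and not between the other neighbours. Dio3 was thus close to Rtl1 per length in the libraries labelled KO and well below it in those labelled WT. Exon lengths are the union of all annotated exons, so a member with many unused exons reads low on this scale.

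The question of noncoding against coding members was put to ratios of counts within a library, which do not depend on how libraries are scaled. The 3 noncoding members held 77.4%, 74.3%, 76.3% and 83.8% of the members' counts in KO 1 to KO 4, against 82.2%, 78.3%, 81.3% and 82.1% in WT 1 to WT 4. These shares overlapped between the groups through KO 4 alone, since KO 1 to KO 3 lay below every library labelled WT. Dio3 made up 1.16% to 1.59% of the members' counts in the libraries labelled KO and 0.585% to 0.645% in those labelled WT.

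Each of the 9 pairs of a noncoding and a coding member was compared by an exact two-sided permutation test of the log2 ratio over the 70 ways of labelling the 8 libraries, whose smallest possible p is 0.0286. With Dio3 as the partner, the ratio was lower in the libraries labelled KO for Meg3 (log2 difference -1.06), Rian (-1.27) and Mirg (-1.72), each with no overlap between the groups and an exact p of 0.0286. Mirg to Dlk1 was lower as well (log2 difference -0.86, exact p = 0.0286), at 0.491, 0.324, 0.440 and 0.472 Mirg counts per Dlk1 count in KO 1 to KO 4, against 0.729, 0.544, 0.820 and 1.10 in WT 1 to WT 4. Adjusted over the 9 pairs these p-values became 0.0643, so 0 of 9 pairs passed, and the smallest p that the design allows would pass only if at least 6 pairs reached it.

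The other 5 pairs overlapped between the groups. Meg3 to Dlk1 differed by -0.19 on the log2 scale (exact p = 0.629) and Rian to Dlk1 by -0.41 (exact p = 0.114). With Rtl1 as the partner, the difference was 0.46 for Meg3 (exact p = 0.0857), 0.25 for Rian (exact p = 0.0571) and -0.20 for Mirg (exact p = 0.114). The Rtl1 row may hold plus-strand reads as well, so the ratios to Rtl1 do not cleanly set noncoding against coding. The Rian to Rtl1 ratio, between neighbours 3.61 kb apart on opposite strands, was 9.26, 9.95, 10.6 and 11.4 Rian counts per Rtl1 count in KO 1 to KO 4, against 9.32, 9.26, 8.11 and 7.96 in WT 1 to WT 4. Without KO 4 the Meg3 to Dlk1 difference was -0.49 (exact p = 0.0857). The Mirg to Dlk1 p-value became 0.0571 when any of KO 1, KO 2, KO 3 or KO 4 was left out of the exact test, and that of Meg3 to Dio3 became 0.0571 when any of WT 1 to WT 4 was left out.

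**Figure D3:**
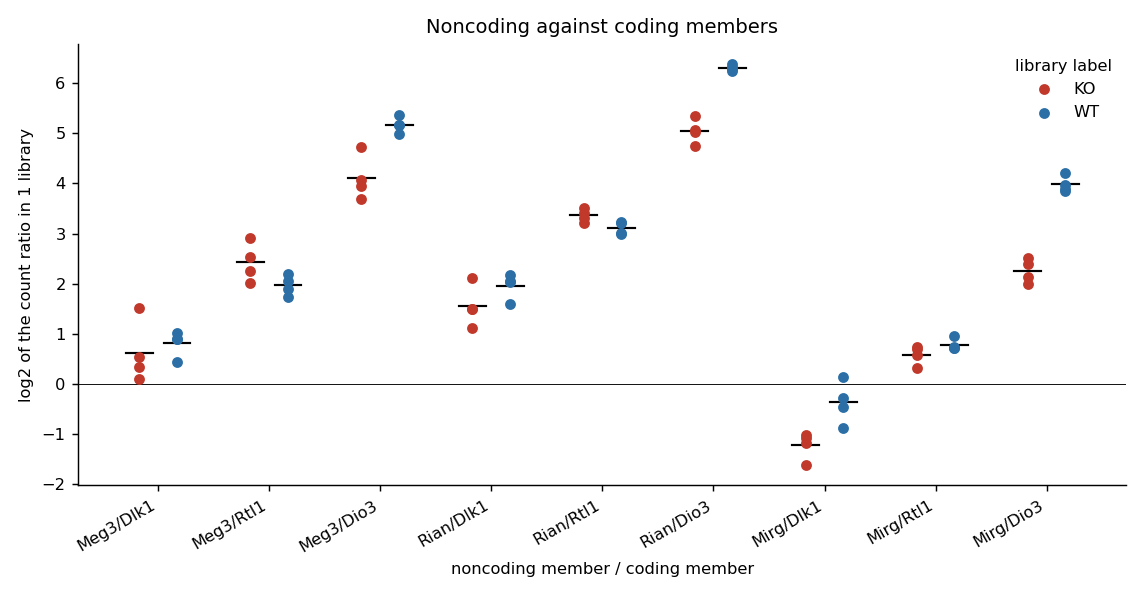
Log2 ratio of counts of a noncoding member to a coding member in each library, with KO left of WT for each of the 9 pairs and a bar at each group mean. The 3 ratios to Dio3 and that of Mirg to Dlk1 do not overlap between the groups, each with the libraries labelled KO lower, and the other 5 pairs overlap.

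Within the coding class, Dio3 departed from its partners. There were 2.71 to 3.59 Rtl1 counts per Dio3 count in the libraries labelled KO and 8.76 to 9.71 in those labelled WT. Dlk1 to Dio3 lay between 9.41 and 12.4 in the libraries labelled KO, against 17.1 to 26.8 in those labelled WT. Within the noncoding class, Rian to Mirg lay between 5.72 and 9.25 in the libraries labelled KO, against 4.10 to 5.67 in those labelled WT. These within-class ratios are a description with no test.

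Strand decides which reads can be told apart here. Of the 6358 exon bases of Rtl1, 516 (8.12%) lie under exons of genes on the other strand, the hairpins of the 6 microRNA genes named above. In GENCODE M21, 6.79% of the exon bases of Meg3 lie under an opposite-strand gene. None of the cluster's minus-strand rows overlaps Meg3, and the effect of that gene on the Meg3 count was not tested. The strand setting of the counting is not given in the sources used here, so it was examined in the table. Of 439 genes whose exons lay wholly under exons of opposite-strand genes only, 4 (0.911%) had any count, as had 1 of 711 genes wholly under exons of their own strand. Of 43423 genes with no overlap, 89.3% had a count. Overlap on the opposite strand thus removed reads as overlap on the same strand did. The 6 microRNA rows under the Rtl1 exon were at 0 in all 8 libraries, and for such rows a 0 carries no limit on expression. In the remaining bases of the Rtl1 exon, reads from Rtl1 and reads from a plus-strand transcript running across it cannot be told apart, so the fall in the Rtl1 row is that of both strands together.

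Between the start of Dlk1 and the end of Dio3 the table had 116 rows, of which 41 were at 0 in all 8 libraries and 15 had enough counts for the test. Of these 15 rows, members among them, 12 were lower, 0 were higher and 3 did not pass, with a median log2 difference of -1.43. Over all tested genes 28.2% were lower and 25.3% higher. Mir1193, 4930511J24Rik, Gm40576 and 4930425K24Rik reached the low-count filter mainly through the libraries labelled WT. For such rows a call of lower was favoured in advance. With no low-count filter, 75 rows of the cluster were tested, and 17 were lower and 0 higher. Of the 7 lower rows that are not members, 4 are annotated as long noncoding RNAs, 1 as a microRNA and 2 (Gm27528 and Gm37899) as TEC, a class of transcripts whose coding status is not settled. Gm34081, a long noncoding RNA on the minus strand between Dlk1 and Meg3, differed by -1.78 (edgeR, adjusted p = 2.76e-04), and Gm27528, in front of Meg3, by -1.86 (adjusted p = 4.35e-04). Between Rian and Mirg, Gm37899 differed by -1.16 and B830012L14Rik by -1.43, with adjusted p-values of 3.37e-04 and 1.76e-04 in edgeR. B830012L14Rik had 7.95, 5.22, 9.15 and 13.4 CPM in KO 1 to KO 4, against 22.7, 25.6, 22.6 and 25.2 CPM in WT 1 to WT 4, with KO 4 again the highest of the libraries labelled KO.

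In the gap between Mirg and Dio3, 4930511J24Rik differed by -1.63 (edgeR, adjusted p = 5.50e-03) and Gm40576 by -1.20 (adjusted p = 0.0348), the second with overlapping groups. Dio3os, the antisense transcript that starts beside Dio3, had 66 counts over the libraries labelled KO and 77 over those labelled WT, a log2 difference of -0.04 (SE 0.490, edgeR, adjusted p = 0.950). 4930425K24Rik, the neighbour of Gm40576, had 29 counts over the libraries labelled KO and 75 over those labelled WT, a difference of -1.16 (SE 0.496, edgeR, adjusted p = 0.0631), close in size to that of Gm40576 but not passed.

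The labels name no selection for short RNAs, so reads in the rows of microRNA and small nucleolar RNA genes may come from longer transcripts that run across them. The 67 microRNA rows of the cluster summed to 3.31, 3.01, 3.62 and 6.17 CPM in KO 1 to KO 4, against 12.7, 12.2, 11.5 and 12.5 CPM in WT 1 to WT 4. The 23 small nucleolar RNA rows summed to between 0.795 and 1.03 CPM in the libraries labelled KO and between 2.15 and 2.29 CPM in those labelled WT. Both sums were lower in every library labelled KO than in any labelled WT. They rest on 248 microRNA counts over the libraries labelled KO and 887 over those labelled WT, and on 60 small nucleolar RNA counts over the libraries labelled KO and 162 over those labelled WT, with 24 microRNA rows and 14 small nucleolar RNA rows at 0 in all libraries. Where such a row lies wholly under exons of another gene, on either strand, its 0 carries no limit on expression.

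Mir1193, the only microRNA row with enough counts for the test, had 17 counts over the libraries labelled KO and 101 over those labelled WT, and a log2 difference of -2.32 (SE 0.410, edgeR, adjusted p = 4.23e-04). Its level was 0.133, 0.397, 0.295 and 0.257 CPM in KO 1 to KO 4, against 1.23, 1.34, 1.41 and 1.62 CPM in WT 1 to WT 4. No library labelled KO came close to one labelled WT, although each rests on few counts. The row passed the low-count filter through the libraries labelled WT alone. A call of lower was thus favoured in advance, and the difference is a description. Both mature forms of this microRNA share their seed with another of the cluster, and the pairs are shown for that reason (RefSeq, GRCm38.p6, seed in capitals).
miR-1193-5p: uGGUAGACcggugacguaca
miR-379-5p: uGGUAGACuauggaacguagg
miR-1193-3p: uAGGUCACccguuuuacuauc
miR-370-5p: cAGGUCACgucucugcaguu
RefSeq lists 113 different mature microRNAs for the cluster, from 61 genes that matched 61 of the 67 rows. They had 104 distinct seeds, of which 9 were shared by 2 different microRNAs and none by more.

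Outside the cluster the directions were mixed. Of 58 rows within 1 Mb on either side 38 were tested, and 10 were higher, 6 lower and 22 not passed in the libraries labelled KO, with a median log2 difference of 0.14, against -1.43 over the 15 tested rows of the cluster. Over all tested genes 25.3% were higher and 28.2% lower, so the share of higher genes in the flanks was close to that of the whole table. On the Dlk1 side, Yy1, a zinc finger transcription factor, averaged 79.3 ± 6.54 CPM in the libraries labelled KO and 37.5 ± 2.42 CPM in those labelled WT (log2 difference 1.08). Begain, the nearest tested gene on that side, 385 kb from Dlk1, averaged 28.9 ± 3.76 CPM in the libraries labelled KO and 74.9 ± 13.9 CPM in those labelled WT (log2 difference -1.37). Its groups did not overlap, and its fall was close in size to that of Meg3 (-1.36). Eml1 differed by -1.34. On the Dio3 side, the 3 lowest p-values belonged to Rcor1, a corepressor subunit, Cinp and Zfp839, with log2 differences of 0.69, 0.89 and 0.68.

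**Figure D4:**
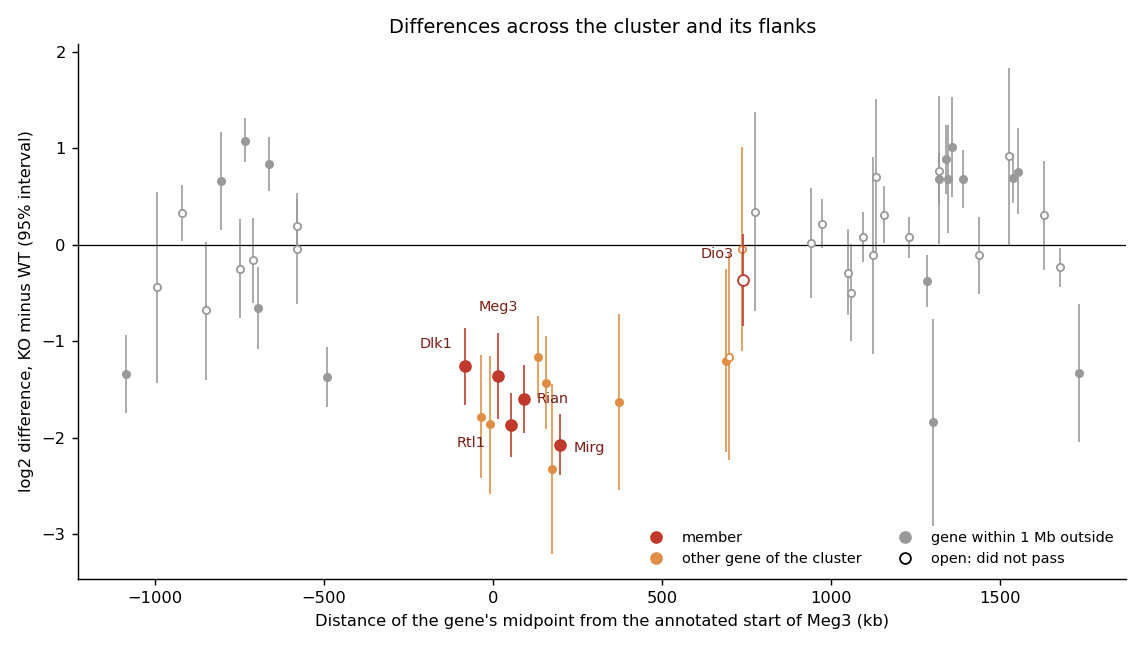
Log2 difference (KO minus WT) with its 95% interval for every tested gene of the cluster and within 1 Mb outside it, against the distance of the gene's midpoint from the annotated start of Meg3 in kb. Members are named and red, other genes of the cluster orange and outside genes grey, and open points did not pass. The 12 passing genes of the cluster all lie below 0, Dio3 and Dio3os lie near it, and the outside genes lie on both sides.

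The regulators of imprinting at this cluster and elsewhere moved in both directions. Of 19 genes on the list (DNA methyltransferases, TET enzymes, imprint-protecting zinc fingers and polycomb subunits, among others), 11 were higher, 4 lower and 4 not passed in the libraries labelled KO, with a median log2 difference of 0.54. The counts of this list and of those below stand against all tested genes, of which 25.3% were higher and 28.2% lower. In the level range of the members other than Dio3, 47.4% were higher and 17.1% lower. Uhrf1, which brings the maintenance methyltransferase to replicated DNA, averaged 108 ± 13.2 CPM in the libraries labelled KO and 26.0 ± 4.77 CPM in those labelled WT (log2 difference 2.05). Dppa3, which protects methylated DNA in the early embryo, averaged 235 ± 75.2 CPM in the libraries labelled KO and 14.3 ± 6.35 CPM in those labelled WT (4.04). The 4 lower genes, named after their values were seen, were Dnmt3l (-1.33), the cofactor of de novo methylation in germ cells, Tet3 (-1.10), Dnmt3a (-0.59) and Eed (-0.53). Zfp57, which protects imprints in the early embryo and was also named after its values were seen, differed by 0.21 (adjusted p = 0.470).

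Among 19 imprinted genes of other clusters, 7 were higher, 4 lower (7 with upper-quartile scaling) and 8 not passed, with a median log2 difference of 0.11, against 0 higher, 5 lower and 1 not passed of the 6 members. The 3 with the lowest p were Zrsr1 (-1.21), Peg3 (1.26) and Snrpn (2.40). The other lower genes were Peg10 (-1.69), Sgce (-1.89) and Grb10 (-1.43). Sgce and Grb10 were named after their values were seen, as was H19 (2.12), which like Meg3 is a maternally expressed noncoding RNA beside a control region methylated in male germ cells. H19 averaged 104 ± 38.4 CPM in the libraries labelled KO and 24.0 ± 6.48 CPM in those labelled WT, in the opposite direction to Meg3.

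Relatives of Rtl1, the other genes derived from sushi-ichi retrotransposons, were tested in 6 of 11 cases, the other 5 having too few counts. Of these 6, 4 were lower and 2 higher in the libraries labelled KO. Peg10, needed for placenta formation in mouse, averaged 61.3 ± 15.6 CPM in the libraries labelled KO and 198 ± 17.3 CPM in those labelled WT (log2 difference -1.69). Rtl9 differed by -2.66 and Rtl10 by 1.17.

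Around Dlk1, of 19 genes of Notch signalling 7 were higher, 5 lower (3 without KO 2 or without WT 2) and 7 not passed, with a median log2 difference of 0.32. Notch3 (1.93) and Notch2 (0.91), both receptors, and Rbpj (0.98), the pathway's DNA-binding factor, had the lowest p. The 5 lower genes, named after their values were seen, were Notch4 (-0.96), Hey2 (-0.83), Jag2 (-0.46), Dlk2 (-1.36), the relative of Dlk1, and Dll4 (-1.0).

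Around Dio3, of 13 genes that handle thyroid hormone 3 were higher, 4 lower (7 with upper-quartile scaling) and 6 not passed, with a median log2 difference of -0.17. Among the higher genes were Rxrb (1.22), a partner of the nuclear hormone receptors, and Ncor1 (0.73), a corepressor. The 4 lower genes, named after their values were seen, were Hr (-1.36), Thrb (-1.20), a thyroid hormone receptor, Dio2 (-1.11), the deiodinase that activates the hormone, and Slc16a10 (-0.57), a transporter. Dio2 averaged 1.84 ± 0.737 CPM in the libraries labelled KO and 3.93 ± 1.02 CPM in those labelled WT, and its groups overlapped.

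Of 14 genes for proteins that process the kinds of small RNA hosted by Rian and Mirg, 11 were higher, 2 lower and 1 not passed in the libraries labelled KO, with a median log2 difference of 0.57. Of all tested genes 25.3% were higher, and of those in the level range of the members other than Dio3 47.4%. Nop58 (1.94), Nop56 (1.14) and Snu13 (1.51), the core proteins of C/D box particles, had the lowest p. Nop58 averaged 141 ± 22.4 CPM in the libraries labelled KO and 36.9 ± 6.56 CPM in those labelled WT. The 2 lower genes, named after their values were seen, were Ago4 (-0.62) and Prkra (-0.59), and 1 gene was lower when KO 2, KO 3, WT 2, WT 3 or WT 4 was left out.

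Markers of the other somatic cells moved in both directions. Interstitial and peritubular markers summed to between 122 and 160 CPM in the libraries labelled KO and between 145 and 160 CPM in those labelled WT, with 3 higher (5 without KO 2, without WT 2 or with no low-count filter), 2 lower (4 with upper-quartile scaling) and 4 not passed of 9, and Myh11 (-1.56) had the lowest p. Of 8 tested Sertoli markers 3 were higher, 1 lower (2 without KO 4, and 0 when KO 2, KO 3, WT 2, WT 3 or WT 4 was left out) and 4 not passed, with Wt1 (1.13) at the lowest p. Of 4 tested endothelial markers 1 was higher, Pecam1 (1.00), and 3 lower. Of 5 tested immune and blood markers 1 was higher, 2 lower and 2 not passed, with Adgre1 (-2.02) at the lowest p, and these counts ran from 0 to 1 higher and from 1 to 2 lower when libraries were left out in turn. With the mean level of Leydig and interstitial markers as a term of the edgeR model, Meg3 differed by -1.62 and the other members kept their call. That mean was 4.98 in KO 4 and between 2.39 and 3.17 in the other libraries (log2 scale). The term therefore mostly sets KO 4 apart, and the Meg3 value is close to the -1.65 found without KO 4. It cannot show the part of these cell types in the other libraries, and that part was not tested.

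The genes whose profiles over the 8 libraries were most like a member's were found by the root-mean-square distance between profiles of log2(CPM + 0.5), each centred on its own mean, over 15571 candidates outside the cluster. Nearest to Dlk1 were Inpp5j, Mmp2 and Aldh1a2, and nearest to Rtl1 Tmprss11d, Wfikkn2 and Cabp2. Dio3 was most like Man2b1, Mast2 and Fam161b, and Meg3 most like Atp2b3, Slc9b2 and Batf. For Rian the nearest were Rims4, Dock5 and Magi2, and for Mirg Tnfaip2, Strc and Tmprss11d. Tmprss11d averaged 0.190 CPM in the libraries labelled KO and 2.04 CPM in those labelled WT, a log2 difference in edgeR of -3.44 against -1.87 for Rtl1 and -2.07 for Mirg, so its short distance rests on the added 0.5 CPM. That addition also shortens the distances of Cabp2 and Batf, which averaged 0.529 and 0.732 CPM in the libraries labelled KO. Cabp2 differed by -2.47, and Batf by -2.02 against -1.36 for Meg3. The distances of all the nearest genes named here ran from 0.0567 to 0.156 on the log2 scale. Members can be set on the same scale: Rtl1 and Rian were 0.151 apart, with 6 candidates nearer to Rian and 9 nearer to Rtl1, and Rtl1 and Mirg 0.174. Dio3 lay between 0.493 and 0.880 from the others. Dlk1 lay 0.359 from Rian, its nearest member, with 1930 candidates nearer. The profiles share their libraries and their depth, and the likeness is a description.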

How the data were processed

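RNA sequencing of 8 libraries was analysed from 1 table of raw counts per gene, deposited by the authors without normalization, as the values show. Build mm10 and the tools featureCounts 1.5.0, STAR, Trim Galore, DESeq2 and edgeR stand in the submitters' processing notes. Strand setting, annotation release and any collapsing by molecular identifier: not given in the sources used here. Of 55401 identifiers, 55141 matched GENCODE M21 without their version, which gave symbols, exons and coordinates (Rian matched in this way only). No column was left unused.

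Counts were fitted over all genes with edgeR 4.0.16 in R 4.3.3 (filterByExpr, TMM scaling, quasi-likelihood test with genotype as the only term), and 24005 genes were tested. Each difference is a log2 value, KO minus WT, and passes at a Benjamini-Hochberg adjusted p under 0.05. A count of 0 allows up to 3 counts, between 0.146 and 0.221 CPM depending on the library. This limit covers counting error only. Ratios of members used counts plus 0.5 and an exact permutation test, adjusted over 9 pairs. The pipeline was tested on simulated data with known changes. Few genes changed there, as many up as down, so it did not test a comparison in which 53.5% of genes pass.

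The members and all gene lists were chosen with earlier results of these data known. Genes named are the members, Tet1, the tested genes of the cluster, up to 3 passing genes on each side and up to 3 per list (1 per marker list) with the lowest p, and the 3 nearest profiles of each member. Others are marked as named after their values were seen. Some genes under this rule are not reported here singly and stay in the counts. The alternatives were DESeq2 1.42.0, RLE, upper-quartile and ribosomal protein scaling, no low-count filter, a filter at a CPM of 1 in at least 4 libraries, a block on replicate number, a covariate from somatic markers, each library left out, and a pseudocount of 1 in the ratios. Recounting the gene lists under each of these was added after seeing the data.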

Additional observations from a re-analysis of the deposited data

Results flagged for a closer look

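Meg3 in KO 4, at 79.6 CPM, lay far from the other 3 libraries labelled KO, which held 40.7, 39.9 and 40.3 CPM. The gap to the nearest of them was 0.981 of the range of the group. It was the only value set apart in this way among 16 groups of 4 libraries examined, and chance sets about 1 in 20 such groups apart.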

How the results depend on the processing

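Under 16 alternatives of the gene fit, 8 of which leave out 1 library each, Dlk1, Rtl1, Meg3, Rian and Mirg stayed lower in the libraries labelled KO and past the threshold in all 16. Their log2 differences ran from -1.49 to -1.02 for Dlk1, -2.10 to -1.72 for Rtl1, -1.65 to -1.23 for Meg3, -1.83 to -1.44 for Rian and -2.30 to -1.92 for Mirg. Dio3 kept its direction throughout (-0.60 to -0.28) and passed with upper-quartile scaling only (-0.60, edgeR, adjusted p = 0.0392, over a range of 0.0392 to 0.434). That scaling moved the median of all genes by -0.24 and ribosomal protein scaling by -0.15, and upper-quartile scaling called 8882 genes lower and 4033 higher, against 6770 and 6083 with TMM. The cluster kept 0 rows higher, with 11 to 17 lower. The replicate numbers shared by the groups gave correlations of 0.148, -0.213, -0.115 and 0.0147 between same-numbered libraries. Those between differently numbered libraries ran from -0.223 to 0.244, so the numbers gave no sign of pairing. Whether KO 1 and WT 1, whose library names share a number, are matched cannot be told from these correlations. The replicate block changed the call of no member (Dio3 -0.37, Dlk1 -1.22 and Meg3 -1.42 in that fit). Leaving out each library in turn moved 5 of the 9 ratio pairs across an exact permutation p of 0.05, with log2 differences of -1.27 to -0.92 for Meg3 to Dio3, -1.03 to -0.69 for Mirg to Dlk1, 0.30 to 0.60 for Meg3 to Rtl1, 0.20 to 0.30 for Rian to Rtl1 and -0.25 to -0.11 for Mirg to Rtl1. With the replicate block the ratios allow no p below 0.125, which ends the unadjusted call of Meg3 to Dio3 (-1.06), Rian to Dio3 (-1.27), Mirg to Dio3 (-1.72) and Mirg to Dlk1 (-0.86) by construction. The cause of the other moves was not tested. Low counts limit Dio3, Mir1193 and the rows around Dio3.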
